A study of Homo sapiens with 6 samples.

Results

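The regions described here are 967 stretches of the SK-N-BE(2) genome at which both HAND2 libraries and both MEIS2 libraries had a CUT&Tag peak and the TCF4 library had none. They were found by pooling the peaks of 5 libraries on chromosomes 1 to 22 and X and merging every set of peaks that shared at least 1 bp, which gave 61457 merged regions. Of these, 22821 held a peak of both HAND2 libraries, and the 967 regions make up 4.24% of them. The regions were chosen by the peak calls of these libraries, so which factors have a peak in them is a definition and not a result. SK-N-BE(2) is an established human neuroblastoma cell line with amplified MYCN, and the labels give that line, with no genetic change or treatment, for all 6 samples. The antibodies were against HAND2 (2 libraries), MEIS2 (2 libraries) and TCF4 (1 library), with an IgG control whose own peaks were not analysed here. Whether the replicates were separate cultures is not stated, and every value comes from a single cell line. RNA was not measured, so the line's identity could not be checked against marker expression.

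Sympathetic neurons and the heart express HAND2, a transcription factor with a basic helix-loop-helix (bHLH) domain. Such factors bind DNA as dimers, usually with an E protein such as TCF4, at short sites called E-boxes. MEIS2 is a homeodomain factor of the TALE class, which binds sites around the letters TGACAG, often beside other factors. In CUT&Tag an antibody directs a transposase to the protein on chromatin, so that the DNA around it is cut and sequenced. Each library samples a population of cells, so whether HAND2 and MEIS2 sat on the same DNA molecule was not measured.

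The letters under some of these regions are shown first, at promoters into which most of the peak summits fell. Of 35116 RefSeq promoter windows (GRCh38.p14, 250 bases before to 50 after a start), 53 windows of 51 genes overlapped 50 of the regions. The strongest summit of at least 1 library lay inside 21 windows, and those of all 4 libraries lay inside 2 windows, OLFML3 and LOC101928419. The 250 bases before the start are printed 5′ to 3′ for those 2 genes and for SOX4 and ELAVL4, which were chosen as neural genes after their values were seen. Capitals mark E-boxes (CANNTG) and the letters TGACAG or, on the opposite strand, CTGTCA.
OLFML3: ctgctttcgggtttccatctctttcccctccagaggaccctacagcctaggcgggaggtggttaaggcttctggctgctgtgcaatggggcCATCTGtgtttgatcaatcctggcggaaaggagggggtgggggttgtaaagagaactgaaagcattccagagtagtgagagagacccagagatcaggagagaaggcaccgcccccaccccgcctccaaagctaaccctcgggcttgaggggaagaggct
LOC101928419: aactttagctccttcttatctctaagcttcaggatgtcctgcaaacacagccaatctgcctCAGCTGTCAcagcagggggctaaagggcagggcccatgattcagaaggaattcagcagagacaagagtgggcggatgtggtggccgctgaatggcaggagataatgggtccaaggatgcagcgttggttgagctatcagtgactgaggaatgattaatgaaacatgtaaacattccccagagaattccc
SOX4: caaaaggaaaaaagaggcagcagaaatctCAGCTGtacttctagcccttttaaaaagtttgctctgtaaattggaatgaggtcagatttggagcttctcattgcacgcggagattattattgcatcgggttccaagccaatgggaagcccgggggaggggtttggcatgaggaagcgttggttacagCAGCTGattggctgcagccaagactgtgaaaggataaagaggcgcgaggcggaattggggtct
ELAVL4: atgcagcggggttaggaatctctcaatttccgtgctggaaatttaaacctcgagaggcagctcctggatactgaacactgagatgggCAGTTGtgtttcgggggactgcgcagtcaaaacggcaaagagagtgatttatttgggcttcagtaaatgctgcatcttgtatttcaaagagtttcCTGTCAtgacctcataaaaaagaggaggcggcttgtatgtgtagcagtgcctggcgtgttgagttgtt

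The OLFML3 window (chr1:113979224-113979473, plus strand) belongs to the gene of a secreted olfactomedin-domain protein. Its 1 E-box, CATCTG, lies 159 to 154 bases before the start. The summits of HAND2 replicates 1 and 2 lay 183 bases before the start, and those of MEIS2 replicates 1 and 2 lay 184 and 220 bases before it. The fold over control that the authors deposited at the summit was 17.9 and 18.0 for HAND2 and 13.1 and 10.3 for MEIS2. In the window of LOC101928419 (chr5:56123851-56124100, plus strand), an uncharacterised locus, the E-box CAGCTG and the letters CTGTCA share 3 bases. The E-box spans 189 to 184 bases before the start and CTGTCA spans 186 to 181. The 4 summits lay 136 and 141 bases (HAND2) and 154 and 218 bases (MEIS2) before the start, so they fell on both sides of the shared letters. Its folds were 31.2 and 26.4 for HAND2 and 5.02 and 26.7 for MEIS2, the widest gap between MEIS2 replicates among the printed promoters.

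SOX4, a transcription factor of neural and other progenitors, has the E-box CAGCTG at 2 places in its window (chr6:21593501-21593750, plus strand). The nearer one spans 63 to 58 bases before the start. The summits of HAND2 replicates 1 and 2 lay 60 and 30 bases from this E-box, and those of MEIS2 replicates 1 and 2 lay 38 and 140 bases from it. The folds at SOX4 were 6.67, 6.72, 7.54 and 7.40 in HAND2 replicates 1 and 2 and MEIS2 replicates 1 and 2, and 3 of the 4 summits lay inside the full 300-base window. ELAVL4 encodes a neuronal RNA-binding protein, and its window (chr1:50109583-50109832, plus strand) holds CAGTTG and, nearer the start, CTGTCA. The HAND2 summits lay 7 and 5 bases from CAGTTG, and the MEIS2 replicate 1 summit lay on CTGTCA. The MEIS2 replicate 2 summit lay 143 bases from CTGTCA, past the start. The folds at ELAVL4 were 8.61 and 3.59 in HAND2 replicates 1 and 2 and 9.88 and 10.8 in MEIS2 replicates 1 and 2. The HAND2 replicate 2 fold had a Poisson counting interval of 1.84 to 6.50 and was below the median of 4.67 in its whole list. The summit of HAND2 replicate 2 near CAGTTG thus belongs to a weak peak.

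Motifs were counted on both strands over the full 300 bases of the 53 windows and of all 35116. Some of the 53 windows overlap, as at HDAC9 and at H2AC6 with H2BC4, and so share letters. The windows are thus not independent, and the intervals may be too narrow. CANNTG stood in 43 windows (81.1%, exact 95% binomial interval 68.0 to 90.6%), against 68.7% of all windows. CATCTG or its reverse complement CAGATG stood in 14 (26.4%, 15.3 to 40.3%) against 14.7%. CAGCTG stood in 15 (28.3%, 16.8 to 42.3%) against 17.9%. CATCTG and CAGCTG are both forms of CANNTG, so these counts overlap. The GATA-type letters AGATAA or TTATCT stood in 10 (18.9%, 9.44 to 32.0%) against 10.3%, but in 2 of the 28 windows of protein-coding genes (7.14%) against 7.88% of all such windows. TGACAG or CTGTCA stood in 8 (15.1%, 6.75 to 27.6%) against 15.8%. Of the 53 windows, 32 held none of the 4 summits. In the 13 windows that held the HAND2 replicate 2 summit, TGACAG or CTGTCA stood in 4 (30.8%, 9.09 to 61.4%) and CATCTG or CAGATG in 3 (23.1%, 5.04 to 53.8%). CANNTG stood in all 13 (75.3 to 100%). CAGCTG stood in 5, and AGATAA or TTATCT also in 5 (38.5%, 13.9 to 68.4% each). These windows are few, and each interval holds the share of the 53 windows. The median GC content of the 53 windows was 48.0% and that of all windows 58.7%, and the part of base composition in these shares was not tested. Under 148 of the 1059 regions with peaks of all 5 libraries lay 243 windows, with a median GC content of 59.7%. CATCTG or CAGATG stood in 13.99% of these windows and TGACAG or CTGTCA in 14.8%. Under regions that held both HAND2 libraries and MEIS2 replicate 2 but neither MEIS2 replicate 1 nor TCF4, TGACAG or CTGTCA stood in 34.2% of 73 windows (23.5 to 46.3%) and CATCTG or CAGATG in 24.7% (15.3 to 36.1%), with a median GC content of 48.3%. With MEIS2 replicate 1 in place of replicate 2, these were 21.3% and 17.02% of 47 windows. A match describes letters and does not show a binding site, and the differences between these shares were not tested.

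Peaks in the 967 regions were strong in the HAND2 lists and less far up in the MEIS2 lists. The median fold was 14.8 in HAND2 replicate 1 (lowest 1.62, highest 165) and 10.9 in HAND2 replicate 2 (1.66 to 135). In the whole lists the median folds were 5.08 and 4.67. For MEIS2 the medians were 8.21 in replicate 1 (1.53 to 57.0) and 7.93 in replicate 2 (1.53 to 48.6), against 5.90 and 6.48 in the whole lists. A fold is the pile-up over the local control background of its own list, with 1 added to each, so levels are compared by rank within a list. The region's peak stood at a median percentile of 91.9 and 88.3 in the HAND2 lists and of 74.4 and 66.3 in the MEIS2 lists. The strongest 10% of the HAND2 lists held the peaks of 548 (56.7%) and 439 (45.4%) regions, and that of the MEIS2 lists 204 (21.1%) and 210 (21.7%). These ranks come from the calls that chose the regions and carry no test. In the 1059 regions that held TCF4 as well, the median folds were 14.9 and 14.1 for HAND2 and 9.25 and 5.92 for MEIS2. By fold, the regions without TCF4 stood lower than these in HAND2 replicate 2 and MEIS2 replicate 1, higher in MEIS2 replicate 2 and about level in HAND2 replicate 1. By summit pile-up they stood lower in all 4 libraries, with medians of 60, 53, 16 and 18 fragments against 113, 128, 30 and 22, so the order in MEIS2 replicate 2 depends on the scale.

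**Figure D1:**
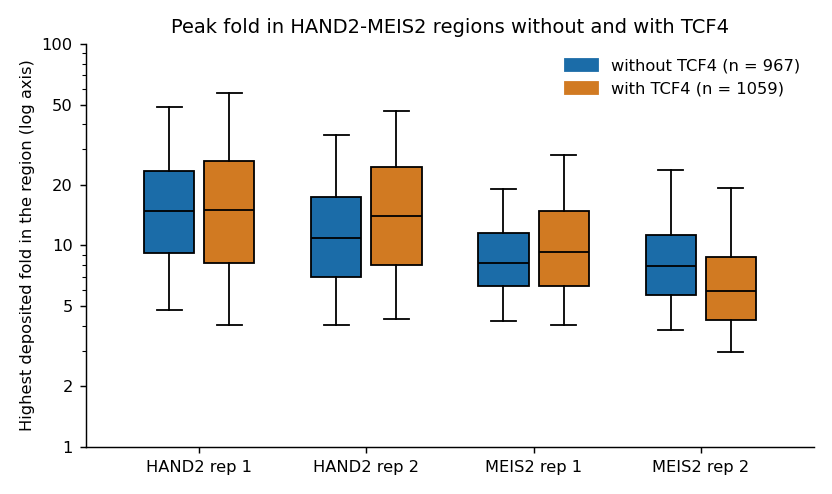
Highest deposited fold over control in each region (y axis, log) by library, for the 967 regions without TCF4 (blue) and the 1059 with it (orange); boxes are quartiles with the median, whiskers the 5th and 95th percentiles. The medians without TCF4 are 14.8 and 10.9 for HAND2 and 8.21 and 7.93 for MEIS2, and folds of different lists are not on one scale.

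The number of fragments behind each fold sets its precision. Read back from the deposited values, the median summit pile-up was 60 and 53 fragments in the HAND2 libraries and 16 and 18 in the MEIS2 libraries. A MEIS2 fold therefore has a wide counting interval: at the MEIS2 gene itself a fold of 10.5 from 15 fragments had an exact 95% Poisson interval of 6.19 to 16.96. Intervals of this kind cover counting error only. HAND2 had 30410 and 33484 peaks in its lists, MEIS2 had 9595 and 13871, and the TCF4 list had 30704. The regions took up 3.40% and 3.16% of the HAND2 peaks and 10.5% and 7.19% of the MEIS2 peaks.

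Across the regions, the HAND2 folds of the replicates ran together more closely than the MEIS2 folds. Spearman's rho over the 967 regions was 0.80 between the HAND2 replicates and 0.27 between the MEIS2 replicates. Between HAND2 replicate 1 and MEIS2 replicate 1 it was 0.45, and between HAND2 replicate 1 and MEIS2 replicate 2 it was 0.31. The points share the control background and regional copy number, and the values are descriptions. HAND2 replicate 1 had the higher fold in 721 of the 967 regions (74.6%), with a median log2 ratio to replicate 2 of 0.32. In the regions of all 5 libraries it was higher in 47.3% (median log2 ratio -0.02), and in the 7423 regions with only the HAND2 libraries in 48.9% (median -0.01). In regions with HAND2 and 1 MEIS2 replicate it leaned the same way as here, at 57.8% (median 0.08) with MEIS2 replicate 1 and in 893 of 1374 regions (median 0.18) with replicate 2. That difference between groups of regions was not tested.

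**Figure D2:**
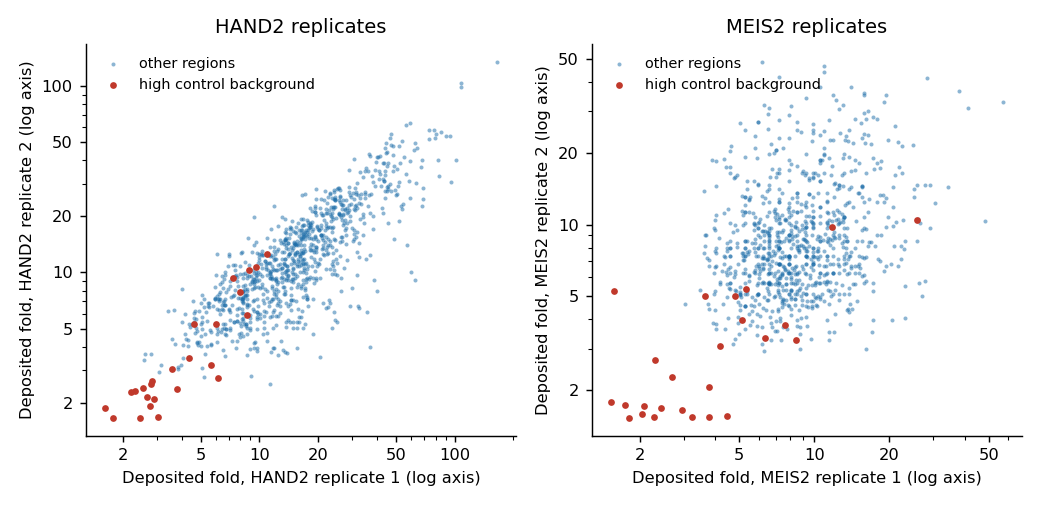
Deposited fold in replicate 2 against replicate 1 for HAND2 (left) and MEIS2 (right), 1 point a region, both axes log; red points are the 25 regions of high control background. HAND2 points lie along a diagonal (rho 0.80) and MEIS2 points form a broad cloud (rho 0.27).

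The best-placed regions were ranked by the lowest of their 4 ranks among the 967, so that a high place needs a strong peak in every library. First was chr2:222993768-222995142, 49129 bp from ACSL3, a fatty-acid CoA ligase gene, with folds of 62.7, 49.5, 41.3 and 30.9 in HAND2 replicates 1 and 2 and MEIS2 replicates 1 and 2. Next came chr17:73042397-73044691 inside SLC39A11, a zinc transporter gene, with 52.7, 38.7, 57.0 and 33.0, the highest MEIS2 replicate 1 fold of all regions. At chr15:62927675-62929512, 83044 bp from TLN2, a talin gene, the HAND2 folds of 165 and 135 were the highest of any region, and the MEIS2 folds were 19.3 and 35.2. Places 4 to 10 lay nearest to or inside RASEF, TGFBI, DLG2, CLPB, PDGFRA, MICAL3 and PFN2. PDGFRA encodes a receptor of platelet-derived growth factor, and the region 31110 bp from it had folds of 95.1, 53.9, 17.1 and 19.0.

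The order changed with the factor. By the MEIS2 pair alone, regions near MCHR1 and CLINT1 were among the 5 best. At the CLINT1 region (chr5:157917537-157921349, 58392 bp away) the MEIS2 folds were 28.3 and 41.4 and the HAND2 folds 10.5 and 7.68. At the region near MCHR1 (chr22:40719678-40723192) they were 38.0 and 36.7 for MEIS2 and 36.5 and 25.9 for HAND2. By the HAND2 pair alone, the 5 best lay near TLN2, SEC61B and EPSTI1 and inside DGKI and ALK. The DGKI region, in a diacylglycerol kinase gene, had HAND2 folds of 85.0 and 56.4 and MEIS2 folds of 8.56 and 13.6. These rankings use the values that chose the regions.

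HAND2 and MEIS2 summits lay close together in MEIS2 replicate 1 and farther apart in MEIS2 replicate 2. The rule asks for overlapping or linked peaks, which bounds these distances, so closeness is partly a definition. The median distance between the summits of HAND2 replicates 1 and 2 was 34 bp (quartiles 9 and 77). From HAND2 replicate 1 to MEIS2 replicate 1 it was 39 bp (11.5 and 98.5), and 57.0% of regions had those summits within 50 bp. From HAND2 replicate 1 to MEIS2 replicate 2 it was 168 bp (74.5 and 355), with 18.6% within 50 bp. The summits of the MEIS2 replicates lay a median of 171 bp apart, farther than either HAND2 summit lay from MEIS2 replicate 1. The regions of all 5 libraries showed the same order, at 31 bp between HAND2 replicates, 58 bp to MEIS2 replicate 1 and 187 bp to MEIS2 replicate 2. All 13871 peak identifiers of MEIS2 replicate 2 carried the word Flag and none of replicate 1 did, although the labels give 1 MEIS2 antibody for both. The part of this naming in the distances was not tested.

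**Figure D3:**
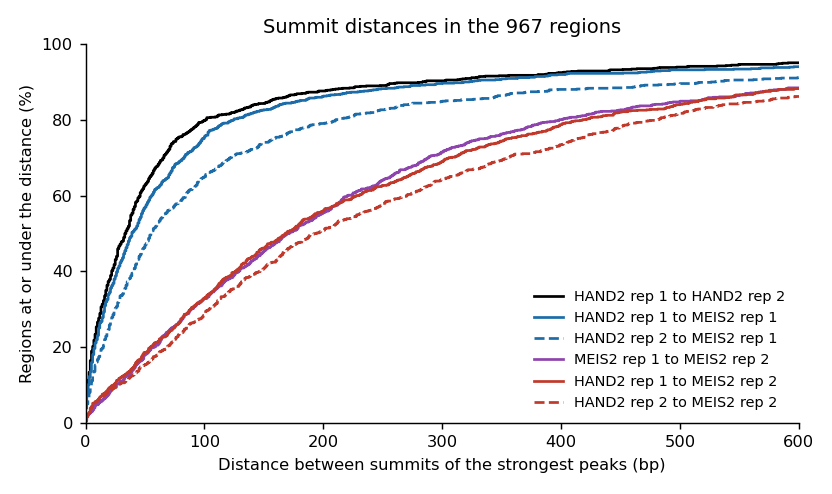
Cumulative share of the 967 regions (y axis, percent) by distance between the strongest summits of a pair of libraries (x axis, bp). Pairs with MEIS2 replicate 2 reach 15.4 to 18.6% at 50 bp, against 62.9% for the HAND2 pair.

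The number of regions depended most on the MEIS2 replicates. Without MEIS2 replicate 1 the same rule gave 2343 regions, and without MEIS2 replicate 2 it gave 1948. In 965 regions with both HAND2 libraries and MEIS2 replicate 1 but no TCF4, replicate 2 had no peak, and its nearest peak lay a median of 28117 bp away. In 1374 regions with MEIS2 replicate 2 the missing replicate 1 peak was a median of 39864 bp away. A missing peak was thus seldom a near overlap: the other MEIS2 list had a peak within 1 kb at 5.08% of the former and 2.47% of the latter. All 4 peaks shared at least 1 base in 928 of the 967 regions (96.0%), and in the others the merged span linked them.

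TCF4 had no peak in any of the regions by definition, so only the distance to its nearest peak was counted. A TCF4 peak lay within 1 kb of 28 regions (2.90%), within 10 kb of 283 (29.3%) and within 50 kb of 607 (62.8%), and the median distance was 25871 bp. The share within 10 kb was 40.9% for regions with HAND2 and MEIS2 replicate 1, 29.9% for those with HAND2 and MEIS2 replicate 2, and 44.3% for those with HAND2 alone. Within 50 kb the shares of these groups were 72.5%, 62.2% and 77.8%, in the same order. The share of random positions near a TCF4 peak was not computed, so these values do not show that TCF4 peaks were common near the regions. At the control background of the regions, a TCF4 peak would have needed a median fold of 3.10 to enter its list (quartiles 2.67 and 3.37, highest 3.59, over 967 regions), which is a median pile-up of 11 fragments. For comparison, the TCF4 folds in the regions of all 5 libraries had a median of 8.31, and 32 of 1059 were under 3.10. The limit depends on the background of each region, and TCF4 signal below a region's own limit was not detectable there. TCF4 has 1 library, so its absence has no replicate check.

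The rule has an edge on each side. The weakest calls inside it were in MEIS2 replicate 1 at SCRG1 (chr4:173490767-173492087) and ABCC4, each with a −log10 q (q being the caller's false discovery rate) of 2.03, a fold of 3.62 and 8 fragments. In MEIS2 replicate 2 the weakest was at PXDNL, with a −log10 q of 2.09 and a fold of 2.99. Among the regions that came closest to holding TCF4 were those near LBH and SNAI2, at 77 and 120 bp from a TCF4 peak. The SNAI2 region (chr8:48919829-48920677), at the gene of a mesenchymal transcription factor, had folds of 9.37, 7.11, 8.03 and 4.86. On the outer side, 8 of the regions of all 5 libraries (0.755%) had a TCF4 −log10 q under 3.

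Most of the regions were far from gene ends. The summit (HAND2 replicate 2) was at most 1 kb from either end of some protein-coding gene in 25 regions (2.59%, exact 95% binomial interval 1.68 to 3.79%), inside a gene away from its ends in 497 (51.4%, 48.2 to 54.6%) and between genes in 445 (46.0%, 42.8 to 49.2%). The median distance from a summit to the nearest gene end was 60866 bp, and 535 regions (55.3%, 52.1 to 58.5%) were over 50 kb from any. In the regions that TCF4 shared with both factors, 8.22% (6.63 to 10.04%) lay at a gene end and 43.2% (40.1 to 46.2%) were over 50 kb away. Regions of HAND2 alone stood at 2.98% (2.60 to 3.39%) and 41.5%. Regions of HAND2 and MEIS2 replicate 1 only, without TCF4, stood at 3.01% and 49.0% (45.8 to 52.2%). Those of HAND2 and MEIS2 replicate 2 only, without TCF4, stood at 1.82% and 50.2% (47.5 to 52.9%). Both of these over-50-kb intervals overlap that of the 967 regions only near its lower edge. The median distances to a gene end in these groups were 48935 and 50419 bp. Whether the distance from gene ends is particular to the 967 regions was not tested. The intervals for the 967 regions and the shared regions do not overlap on either measure, but neighbouring regions are not independent and the difference was not tested. All these places refer to protein-coding genes only, so a summit counted between genes may lie in or near a non-coding gene. The gene table gives the ends of each gene without exons or UTRs, so a place inside a gene may be exonic or intronic.

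**Figure D4:**
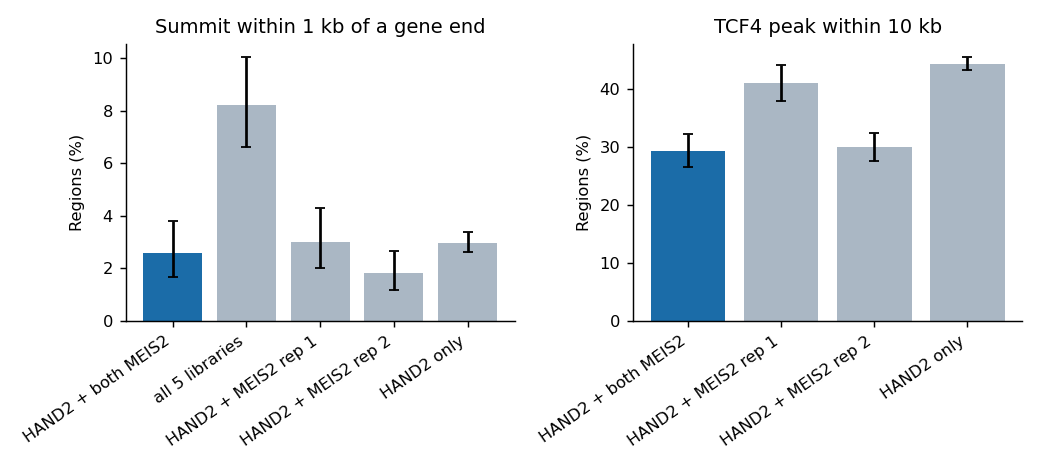
Share of regions (percent, with exact 95% binomial intervals) with a summit within 1 kb of a gene end (left) and with a TCF4 peak within 10 kb (right), for the 967 regions (blue) and other groups of HAND2 regions (grey). The 967 regions have 2.59% at gene ends against 8.22% where TCF4 was present as well.

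Spans of 35 regions reached to within 1 kb of an end of 39 protein-coding genes, 0.195% of the 19974 in the table. Ranked as above, these began with STAU2, OLFML3, ZNF608, FAM167A, SCG2, PIGV, CADM1, H4C3, HNMT and GATB. STAU2, which encodes a neuronal RNA-transport protein, had folds of 28.9, 28.6, 21.6 and 22.3 at chr8:73419058-73422122, with a TCF4 peak 952 bp away. SCG2, the gene of secretogranin II of neuroendocrine granules, had 14.6, 11.1, 13.4 and 7.93 at chr2:223593744-223596466, 474 bp from the gene. CADM1, an adhesion molecule gene, had 11.5, 12.4, 10.9 and 8.57 at 363 bp. HNMT, the gene of a histamine-degrading methyltransferase, had 11.3, 9.75, 10.9 and 21.0 and no TCF4 peak for 1977598 bp. H4C3 belongs to a histone family with near-identical copies, so reads there may be misplaced.

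Genes with a region within 50 kb numbered 826, 4.14% of 19974 protein-coding genes. Within 10 kb there were 479 (2.4%), and 690 genes (3.45%) were the nearest gene of a region. Among adrenergic regulators, the transcription factors that define the sympathetic-like state of neuroblastoma, 6 of 28 had a region within 50 kb (21.4%), among them MEIS2, HAND2, TCF4, KLF7 and ISL1. Their median length, 21522.5 bp, was close to the 24170.5 bp of all genes. Regions of all 5 libraries lay within 50 kb of 9 of the 28, against 5.87% of all genes. Both shares stood above their background, with no test made, and the list was written with earlier results known. With MEIS2 replicate 1 left out the count was 10 of 28 (background 8.86%), and with replicate 2 left out it was 14 (background 8.10%).

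The genes of all 3 factors carried such regions themselves. HAND2 had 4 within 50 kb, all outside the gene. The strongest, chr4:173556389-173558390 at 26160 bp, had folds of 16.2, 10.01, 14.8 and 8.50. The closest, chr4:173532464-173533465 at 2235 bp, had 7.76, 7.28, 12.1 and 5.28, with a TCF4 peak 543 bp away. The others lay inside SCRG1 and were weak in MEIS2. The region at 34004 bp is the SCRG1 edge case given above, with a MEIS2 replicate 1 fold of 3.62 from 8 fragments. The region at 39968 bp had 8 and 9 MEIS2 fragments. MEIS2 had 1 inside the gene, chr15:37014711-37016494, with 16.8, 10.1, 10.5 and 18.1 and no TCF4 peak within 78710 bp. TCF4 had 1 inside the gene, chr18:55302036-55302912, with 8.70, 7.60, 6.25 and 7.20, and there a TCF4 peak lay 975 bp away.

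Of the other adrenergic regulators, ISL1 encodes a LIM-homeodomain factor and had a region 679 bp from the gene, with folds of 6.98, 6.29, 6.88 and 4.96. At KLF7, a zinc-finger factor, the folds inside the gene were 43.1, 38.5, 11.6 and 5.26. The bHLH and ID list counted 3 of 43 (6.98%), which were HAND2, TCF4 and ATOH8, a proneural-type factor. The TALE list counted 2 of 18, IRX6 and MEIS2. The mesenchymal list, the opposite state of neuroblastoma, counted 2 of 34 (5.88%, against 4.14% of all genes), SNAI2 and TEAD1. Without MEIS2 replicate 1 the mesenchymal count was 7 of 34 (20.6%, background 8.86%), and without replicate 2 it was 4 of 34 (background 8.10%).

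Receptors of growth factors with roles in neural crest and neuronal cells had a region within 50 kb in 5 of 24 cases (20.8%), among them PDGFRA, IGF1R, ALK and EGFR. ALK, a receptor tyrosine kinase mutated in some neuroblastomas, held 3 regions inside the gene. The strongest, chr2:29766837-29769595, had folds of 80.3, 55.5, 11.0 and 24.7, with a TCF4 peak 1915 bp away. The others had 11.1, 10.4, 8.86 and 4.03, and 12.3, 10.3, 4.61 and 20.5. IGF1R, the insulin-like growth factor receptor, held 2, the stronger with 47.1, 27.2, 15.5 and 14.4. EGFR held 3, with HAND2 replicate 1 folds of 5.98 to 16.5. The genes of this list had a median length of 67527 bp, and a longer gene is within 50 kb of more of the genome.

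Genes of catecholamine synthesis, storage and uptake counted 4 of 20: SCG2 with 2 regions, SCG3, GCH1 and PTPRN. SCG3, a granin of secretory granules, had folds of 26.1, 7.91, 10.5 and 38.0 at 4784 bp, so neither pair of replicates was close. GCH1, which starts synthesis of the tetrahydrobiopterin cofactor, had 16.7, 7.40, 4.03 and 10.9 at 21710 bp. Genes of the neuronal cytoskeleton and growth cone counted 6 of 34: ANK3, MAP1B, DCLK1, ANK2, TUBA1A and ELAVL4. At ANK3, an ankyrin of the axon initial segment, the folds were 59.3, 25.2, 10.3 and 13.6. Axon guidance genes counted 7 of 41, led by SLIT3 and SEMA6D, with a median gene length of 187922 bp. Without MEIS2 replicate 1 the counts of cytoskeletal, axon guidance, receptor and catecholamine genes were 10, 9, 5 and 4. Without replicate 2 they were 8, 8, 8 and 5. The background over all genes rose from 4.14% to 8.86% and 8.10% in these settings, so the receptor and catecholamine counts without replicate 1 stayed level against a higher background.

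The other lists had lower shares than the adrenergic, receptor, catecholamine, cytoskeletal and axon guidance lists with both MEIS2 replicates required. WNT genes counted 4 of 38 (10.5%: LGR5, ROR2, SFRP1 and TCF7L2) and Notch genes 3 of 26 (11.5%: MAML3, NUMB and MAML2). BMP and TGF-beta genes counted 3 of 38 (7.89%: ACVR1, GREM1 and SMAD3). Synaptic vesicle genes counted 3 of 34 (8.82%) and retinoic acid genes 2 of 24 (8.33%). Potassium channels, with 2 of 46 (4.35%), and SOX factors, with 1 of 19 (5.26%), stood near the 4.14% of all genes. These shares depended on that requirement. Without MEIS2 replicate 1, BMP and TGF-beta genes counted 8 of 38 (21.1%), against a background of 8.86%. Without MEIS2 replicate 2, synaptic vesicle genes counted 8 of 34 (23.5%) and TALE genes 6 of 18 (33.3%), against a background of 8.10%. Both backgrounds are above the 4.14% with both replicates required, so part of each rise goes with the background. Cell cycle and DNA replication genes counted 0 of 40 against 4.14% of all genes, and 1 of 40 with either MEIS2 replicate left out. Regions of all 5 libraries lay within 50 kb of 7 of these 40 genes, against 5.87% of all genes. Nicotinic receptor genes counted 0 of 16, against 4 with regions of all 5 libraries, 2 without MEIS2 replicate 1 and 3 without replicate 2. The receptor and cytoskeletal lists above had as many genes near regions of all 5 libraries, 5 and 6, as near the regions described here. Lists of genes of other cell types counted 1 of 37 for heart muscle (POPDC3, 2.70%), against 4.14% of all protein-coding genes. The counts were 0 of 20, 22 and 22 for Schwann cell precursor and melanocyte, blood cell and liver. In lists of these sizes, the nicotinic and cell cycle lists among them, counts of 0 or 1 are too small to set apart from that share. The differences between lists were not tested.

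**Figure D5:**
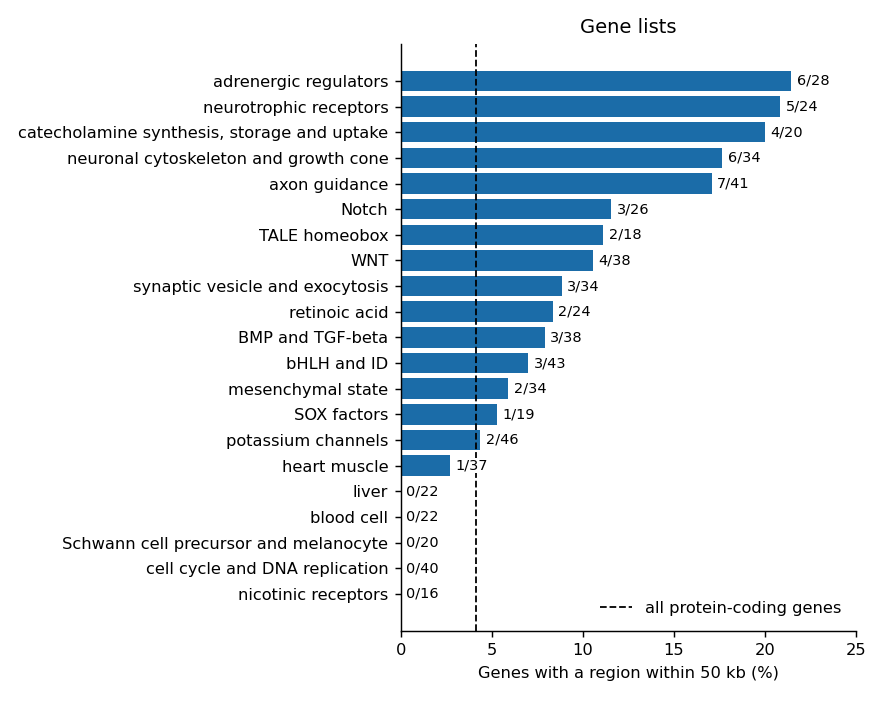
Percent of each gene list with a region within 50 kb, with the number of genes beside each bar; the dashed line is the 4.14% of all protein-coding genes. Adrenergic regulators (6 of 28) and neurotrophic receptors (5 of 24) are the highest, and 5 lists stand at 0.

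The regions were clustered at some long genes. The nearest other region lay a median of 247633 bp away, and 114 regions (11.8%) had one within 10 kb. PRKCE, which encodes protein kinase C epsilon, held 10 regions within 50 kb, all inside the gene (chr2:45673969-45931184). Their folds ranged from 9.13 to 31.8 in HAND2 replicate 1, 8.84 to 22.2 in HAND2 replicate 2, 4.48 to 21.0 in MEIS2 replicate 1 and 5.64 to 16.2 in MEIS2 replicate 2. SLIT3, the gene of a secreted guidance cue, also had 10, of which 9 were inside it. Its medians were 24.9, 18.4, 11.4 and 8.80, and its nearest TCF4 peak was 4275 bp from a region. MAML3, a Notch coactivator gene, had 7, and AUTS2, CLPB, CTNNA2, KCNMA1, NAV2 and PARVA had 6 each. At CTNNA2, an alpha-catenin gene of neurons, no TCF4 peak lay within 149563 bp of any of the 6. The densest runs within 100 kb held 7 regions at chr2:16123330-16212595, near MYCN, and 6 each in PARVA, CLPB and PRKCE and between CYRIA and MYCN.

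A stretch of chromosome 2 around MYCN held 19 of the regions at chr2:16003208-16410085. The control background there was 79.6 to 601 in the units of HAND2 replicate 1, against a median of 2.67 over the 967 regions. Pile-ups of 362 to 1552 fragments in HAND2 replicate 1 therefore gave a median fold of only 2.83 (1.62 to 8.63). In HAND2 replicate 2 and the MEIS2 replicates the medians were 2.37, 2.69 and 1.74. The labels do not give copy number, and the part of amplification in these calls was not tested. With these and 6 other regions of high background left out, 942 regions remained, and rho was 0.79 between HAND2 and 0.23 between MEIS2 replicates.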

How the data were processed

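CUT&Tag libraries of SK-N-BE(2) cells were made with antibodies against HAND2, MEIS2 and TCF4, and 5 peak lists were used. Reads were processed with bcl2fastq 2.17, Bowtie2 and MACS3 3.0.0a6 on hg38, per the submitters' processing notes; options: not given in the sources used here. Each list was called on 1 sample, as the deposited files show. The deposited fold at the summit is a ratio of pile-up to local control background, with 1 added to each. The added 1 lowers a fold most where the background is low. The median background at the regions was 0.863 and 1.10 in the MEIS2 lists and 2.67 and 3.16 in the HAND2 lists. The authors' lists also give −log10 p and −log10 q, with no −log10 q under 2.00. Folds rank peaks within a list only. On other chromosomes there were 0 and 0 HAND2, 3 and 5 MEIS2 and 7 TCF4 peaks, which were dropped. Coordinates are 1-based.

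Pile-ups were recovered as the whole number matching fold and p within a relative tolerance of 5e-05, which was found for 100% of peaks. Tested on 4992 simulated peaks, 100% came back. The background a TCF4 peak would have faced was taken as 0.895 times that of HAND2 replicate 2, from 679 coincident summits above the lowest background. The strongest peak of a library stands for it in a region.

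Genes and promoters came from RefSeq tables of GRCh38.p14, the build of the files, with 19974 protein-coding genes. The promoter table has no chromosome 8 entries here. No genome was used, so the planned motif search around summits was replaced by RefSeq promoter windows.

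Named regions were the 10 with the best lowest rank over the 4 libraries, the 10 best within 1 kb of a gene end, the 5 best by each factor's pair, the 5 genes with most regions (with ties), up to 6 genes a list, the 3 densest runs and 3 at each edge of the rule. SCRG1, an edge case, lies near HAND2. Some genes that this rule names are not reported here. The regions and the 21 gene lists were chosen with earlier results of these data known. Alternatives changed the overlap, thresholds, windows and libraries. Shares have exact 95% binomial intervals. Python 3.11.15, pandas 2.3.3, scipy 1.17.1, numpy 2.4.6 and matplotlib 3.10.9 were used.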

Additional observations from a re-analysis of the deposited data

How the results depend on the processing

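No paired analysis was possible because the results are counts and distances from peak lists and come from no test. The number of regions was 982 to 2343 with 1 library left out: 982 without HAND2 replicate 1, 1126 without HAND2 replicate 2, 2343 without MEIS2 replicate 1 and 1948 without MEIS2 replicate 2, so both MEIS2 replicates moved it by over 1.5 times. The other alternatives gave 684 to 957 regions, among them 942 without regions of high control background. Genes within 50 kb were 829 to 1770 with 1 library left out, 479 within 10 kb and 531 when regions with a TCF4 peak within 10 kb were left out. The share at gene ends was 1.55% with a 500 bp window and 7.55% with 5 kb, and 2.18 to 2.82% with 1 library left out. The median distance from HAND2 replicate 1 to MEIS2 replicate 1 summits was 34.5 bp with every peak at a −log10 q of at least 5, 34 bp with that limit on HAND2 and MEIS2 only, and 39 to 47 bp with 1 library left out. To MEIS2 replicate 2 it was 168 to 183 bp with 1 library left out. The share of promoter windows with CATCTG or CAGATG was 21.9 to 29.6% with 1 library left out and 21.4 to 31.1% over all alternatives. Counts of gene lists also moved by over 1.5 times without a MEIS2 replicate, as given with the lists. The motif search around summits was not run. The following alternatives were chosen after seeing the data: leaving out high control background, gene starts from the promoter table, promoters of protein-coding genes only, and promoters holding the HAND2 replicate 2 summit. The MEIS2 pile-ups of 16 and 18 fragments limit the precision of MEIS2 folds.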

Other observations

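The regions were spread unevenly over chromosomes. Of the regions that held both HAND2 libraries, 8.50% on chromosome 8, 8.27% on chromosome 4 and 7.08% on chromosome 6 were among the 967, against 4.24% on all chromosomes. On chromosome 19 the share was 0.586% (4 of 683) and on chromosome 22 1.59%. Gene density and copy number by chromosome were not used, and these shares were not tested.

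The regions had a median width of 1460 bp, between the 2108 bp of regions with all 5 libraries and the 781 bp of regions with HAND2 alone. A merged region with more lists is wider by construction. Several promoter windows under the regions belong to histone genes, among them H2BC4, H2AC6, H4C5, H1-3, H4C12 and H4C13. Histone genes have near-identical copies, so the placement of reads there is uncertain.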
